A study of Mus musculus with 43 samples.

Results

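The Hippo pathway sets how much of the coactivators YAP (gene Yap1) and TAZ (gene Wwtr1) reaches the nucleus. Its kinases phosphorylate both proteins and hold them in the cytoplasm, and without that phosphorylation they enter the nucleus, bind the DNA-binding TEAD proteins and switch on genes such as Ctgf and Cyr61. Angiomotins are junction proteins that hold YAP and TAZ outside the nucleus and help to activate the kinases. In the mouse blastocyst the pathway separates the outer trophectoderm, where YAP acts with TEAD4, from the inner cells, where angiomotin helps to keep YAP out of the nucleus.

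The 10 genes described here are YAP and TEAD regulators and targets, taken by symbol out of 22462 genes in 1 deposited table. They are the targets Ctgf, Cyr61, Ankrd1 and Amotl2, the angiomotins Amot and Amotl1 (Amotl2 is also an angiomotin), the coactivators Yap1 and Wwtr1, and the factors Tead1 and Tead4. They were chosen with their control and knockout values known, so those values are a description, and the calls quoted for them support nothing beyond themselves. All 10 had been tested by the authors.

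The samples were E14 mouse embryonic stem cells (line ES-E14TG2a), grown with serum and LIF on gelatin. Control cells were compared with MTF2 knockout cells of the same line. MTF2 is a Polycomb-like subunit of PRC2, which places the repressive methyl mark on histone H3 lysine 27. The labels used here do not say how the knockout was made or whether it is 1 clone. RNA-seq of polyadenylated RNA was made from 3 control and 3 knockout libraries, called biological replicates in the series design. The ChIP-seq samples, which also covered knockout cells with wild-type or K339A MTF2 put back, were not analysed here.

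The table holds 1 FPKM value (fragments scaled to transcript length and library size) per gene and group, pooled by the authors over 3 libraries. No value per library, SD or depth can therefore be given, and whether the 3 libraries of a group overlap with those of the other is unknown. A call means a q (the authors' adjusted p from Cuffdiff) at or under 0.05. Ratios are log2((knockout FPKM + 0.5)/(control FPKM + 0.5)). Calls took in 12.9% of the 11362 tested genes, 6.90% as higher and 6.03% as lower in the knockout. The median ratio over all tested genes was -0.0035. Mtf2 itself was at 74.3 FPKM in the controls and 44.7 in the knockout (q = 0.0496, the authors' deposited table).

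Start-site windows of 7 of the 10 genes were read from RefSeq (GRCm38.p6), each from 250 bases before to 50 bases after the start. Those below are of 2 targets that rose, Ankrd1 and Cyr61, of a target that was not called, Amotl2, of the coactivator gene that rose, Wwtr1, and of the angiomotin gene that rose, Amot. Capitals mark GGAATG, the core letters that TEAD proteins recognise, or CATTCC, the same letters on the other strand.
Ankrd1: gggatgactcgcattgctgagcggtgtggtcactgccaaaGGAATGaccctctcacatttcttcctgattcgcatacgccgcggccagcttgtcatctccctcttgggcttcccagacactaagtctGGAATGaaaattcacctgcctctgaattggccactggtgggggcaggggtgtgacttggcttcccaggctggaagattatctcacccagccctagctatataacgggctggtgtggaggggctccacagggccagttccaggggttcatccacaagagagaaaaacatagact
Cyr61: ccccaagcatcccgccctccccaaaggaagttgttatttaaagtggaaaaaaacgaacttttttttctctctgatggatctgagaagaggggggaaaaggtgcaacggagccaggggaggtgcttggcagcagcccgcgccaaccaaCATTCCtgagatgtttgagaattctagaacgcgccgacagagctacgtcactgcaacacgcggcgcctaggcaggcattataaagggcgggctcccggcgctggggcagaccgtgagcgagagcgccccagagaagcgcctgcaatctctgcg
Amotl2: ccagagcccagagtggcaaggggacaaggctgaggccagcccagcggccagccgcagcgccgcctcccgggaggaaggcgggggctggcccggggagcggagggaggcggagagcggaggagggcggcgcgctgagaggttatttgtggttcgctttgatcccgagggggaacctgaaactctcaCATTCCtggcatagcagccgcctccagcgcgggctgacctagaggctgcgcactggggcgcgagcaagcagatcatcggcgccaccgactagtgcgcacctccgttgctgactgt
Wwtr1: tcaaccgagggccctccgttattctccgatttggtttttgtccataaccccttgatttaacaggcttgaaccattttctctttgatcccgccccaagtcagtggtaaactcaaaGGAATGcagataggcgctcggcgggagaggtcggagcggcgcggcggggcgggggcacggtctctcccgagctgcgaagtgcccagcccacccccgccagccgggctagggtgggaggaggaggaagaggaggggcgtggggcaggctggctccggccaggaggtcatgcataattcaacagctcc
Amot: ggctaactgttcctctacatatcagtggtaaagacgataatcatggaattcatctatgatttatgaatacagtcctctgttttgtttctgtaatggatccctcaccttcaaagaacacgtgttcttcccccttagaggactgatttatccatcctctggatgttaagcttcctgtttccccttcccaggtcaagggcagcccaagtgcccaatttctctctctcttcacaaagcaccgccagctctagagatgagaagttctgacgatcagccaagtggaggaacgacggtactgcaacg

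The windows lie at chr19:36119795-36120094 on the minus strand for Ankrd1, chr3:145649936-145650235 on the minus strand for Cyr61, chr9:102717554-102717853 on the plus strand for Amotl2, chr3:57575861-57576160 on the minus strand for Wwtr1 and chrX:145487590-145487889 on the minus strand for Amot. The Amot window belongs to a start site 17.5 kb inside the gene's locus, so it is not the outermost start of that gene. The Amotl2 window belongs to a start site 1.00 kb inside the locus entry.

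GGAATG was found on either strand in windows of 5 of the 7 genes: Ankrd1, Cyr61, Amotl2, Wwtr1 and Yap1. Ankrd1 held 2 matches, 210 and 123 bases upstream of the start site. The single match of Cyr61 lay 103 bases upstream, that of Amotl2 65, that of Yap1 141 and that of Wwtr1 136 bases upstream. Wwtr1 has a second annotated start site nearby, whose overlapping window holds the same letters 170 bases upstream. The windows of Amot and Amotl1 held none. Of all 32851 windows in the table, 14.7% held at least 1 match and 1.36% held 2 or more. Matches stood both in genes that rose and in genes that were not called. Amot rose with no match in the window read, which is not at its outermost start. No window was available for Ctgf, Tead1 and Tead4. The part of these matches in the expression values was not tested. TGANTCA, the letters AP-1 recognises, overlaps none of these matches. It was in none of the 7 genes' windows and in 7.81% of all windows. A match is a run of letters, not a measured binding site.

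**Figure D1:**
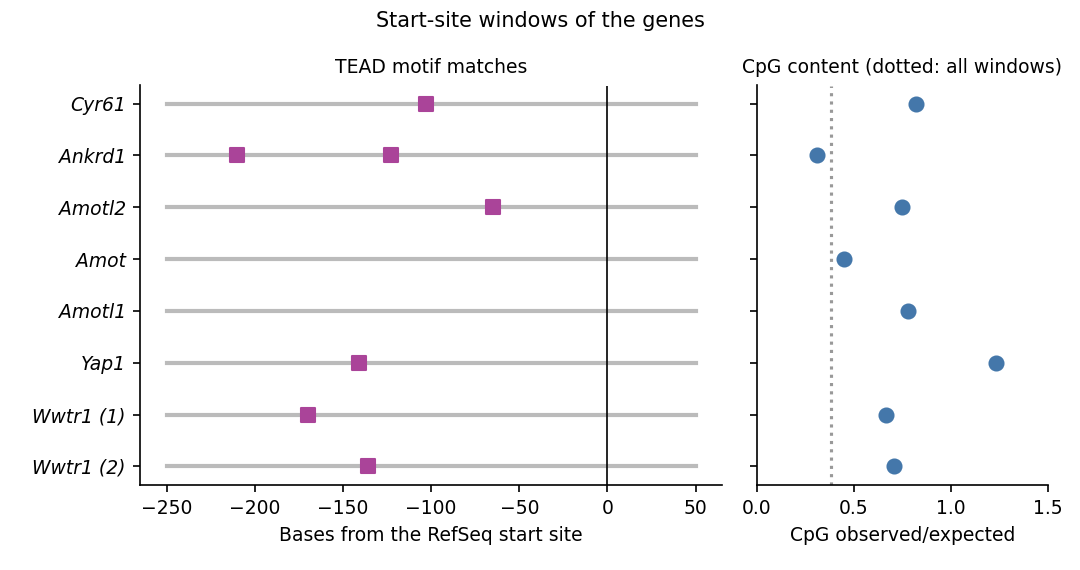
Start-site windows of the 7 genes with a RefSeq window (Wwtr1 has 2). Left, squares mark the first base of each TEAD motif match, in bases from the start site (vertical line). Right, points give the CpG observed/expected ratio of each window, and the dotted line is the median of 32851 windows (0.384). Yap1 stands farthest to the right at 1.23, and Ankrd1 is left of the line at 0.312.

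CpG content differed widely among these windows. The observed/expected CpG ratio was 1.23 for Yap1, at percentile 99.8 of all windows, and 0.823 for Cyr61. It was 0.781 for Amotl1, 0.749 for Amotl2 and 0.707 for Wwtr1. Amot had 0.451 and Ankrd1 0.312, against a median of 0.384 over all windows. Ankrd1 and Amot, with the lowest CpG ratios of the 7, also had the largest expression ratios among them. This is a description of 7 windows chosen with the ratios known, and the window of Amot is not at that gene's outermost start.

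Of the 10 genes, 5 were called higher in the knockout (Ctgf, Cyr61, Ankrd1, Amot and Wwtr1), 0 lower and 5 were not called, beside 6.90% higher and 6.03% lower among all tested genes. Of these calls, 2 (Ankrd1 and Amot) were of genes under 1 FPKM in control cells, and such genes were tested only where they were higher in the knockout. The genes were chosen on this contrast, so nothing is read from that count. Among the 10, the ratio ran from -0.40 for Yap1 to 4.73 for Ankrd1, with a median of 0.75.

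Markers of another cell type moved in the same comparison. Of 18 primitive endoderm markers, 16 were tested, of which 12 were called higher (75.0%, beside 6.90% of all tested genes) and 0 lower, with a median ratio of 3.14. Of the 16 tested, 6 were under 1 FPKM in control cells, 3 of the calls among them, and such genes were tested only where they were higher in the knockout. The ratio was above 0 in 15 of the 16 and below 0 in 1, Hnf4a (2.25 and 1.08 FPKM, not called). Afp and Ttr, the 2 not tested, were at most 1.29 FPKM in either group. All 18 together summed to 354 FPKM in the controls and 1789 in the knockout. Among the called, Gata4 and Sox7 lie on chromosome 14, where neighbours rose too, with medians of 1.36 and 1.52. Without chromosome 14, 10 of 14 tested primitive endoderm markers were called higher. Col4a1 and Col4a2, both called and on chromosome 8, share a locus entry, and neighbours rose there too. The 20 nearest tested to each had medians of 0.86 and 0.83, with 8 called higher in each case. Of the trophectoderm markers, where YAP and TEAD4 act in the embryo, Krt8 and Krt18 were called higher and Tfap2c lower (16.9 to 7.41 FPKM) out of 8 tested. That was 25% higher and 12.5% lower, beside 6.90% and 6.03% of all tested genes. The same 2 shares stand beside the fibroblast and pluripotency counts that follow. Of the trophectoderm regulators, Eomes (6.07 and 3.90 FPKM) was tested and not called, and Cdx2 (0.573 and 0.798 FPKM), Gata3 (0.906 and 0.999 FPKM) and Elf5 (0.645 FPKM and listed at 0) were under 1 FPKM in both groups and not tested. Of 13 fibroblast markers, 4 (Col3a1, Dcn, Postn and Twist2) were listed at 0 in both groups and 3 were tested: Fbln1 fell from 38.9 to 18.5 FPKM (q = 0.0022, the authors' deposited table), and Thy1 (5.14 and 11.4 FPKM) and Twist1 (2.18 and 3.39 FPKM) were not called. Of 14 pluripotency markers 13 were at or above 1 FPKM in both groups, and 13 were tested. Called higher were 3 (Klf5, Tfcp2l1 and Tdgf1, 23.1%) and lower 1 (Utf1, 352 to 215 FPKM, 7.69%). All 14 together summed to 6182 FPKM in the controls and 6269 in the knockout. Klf5 also lies on chromosome 14, and its ratio of 0.78 stood beside a median of 0.69 for its 20 nearest tested neighbours. In bulk RNA, a change in the number of cells of a type cannot be told apart from a change in RNA per cell, and the part of the primitive endoderm markers in the values of the 10 genes was not tested.

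The secreted matrix proteins CTGF (CCN2) and CYR61 (CCN1) are widely used readouts of YAP and TAZ activity. Ctgf (chromosome 10, 24595442 to 24598683) was at 9.21 FPKM in the controls and 53.9 in the knockout, a 5.85-fold difference (log2 ratio 2.49, q = 0.0012, the authors' deposited table). Cyr61 (chromosome 3, 145646976 to 145649981) stood at 16.1 and 61.8 FPKM, a 3.84-fold difference (log2 ratio 1.91, q = 0.0012, the authors' deposited table). The rise in FPKM was nearly equal, 44.7 for Ctgf and 45.7 for Cyr61, although control cells held less Ctgf than Cyr61. In control cells Ctgf was at percentile 45.3 of the tested genes by level and Cyr61 at 58.9. In knockout cells they were at 84.1 and 86.2. Transcripts of both were therefore at middling levels in control cells. The other CCN genes stayed low: Nov, Wisp2 and Wisp3 were at most 0.611 FPKM in either group and were not tested, and Wisp1 (0.513 and 1.88 FPKM) was tested and not called (q = 0.794, the authors' deposited table).

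Ankrd1, a muscle-enriched ankyrin repeat protein and another much used YAP target, was listed at 0 in control cells and at 12.8 FPKM in knockout cells (chromosome 19, 36111965 to 36119844; q = 0.0012, the authors' deposited table). A listed 0 may also be a value that could not be estimated, so no fold is given. Of the tested genes, 70 were listed at 0 in control cells and 35 of those were called. With the pseudocount of 0.5 FPKM its ratio was 4.73, the 19th highest of 11362. That number is set largely by the pseudocount, being 7.01 with 0.1 FPKM and 3.78 with 1 FPKM.

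Amotl2, at once a YAP target and an angiomotin, did not share this direction. Its level was 45.2 FPKM in the controls and 44.7 in the knockout (chromosome 9, 102716802 to 102733418), 98.9% of the control level (log2 ratio -0.02, q = 0.971, the authors' deposited table). Of the 4 targets named here it was the highest in control cells and the third highest in knockout cells, above Ankrd1 in both. A p that misses the threshold does not show that the level was the same in both groups.

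**Figure D2:**
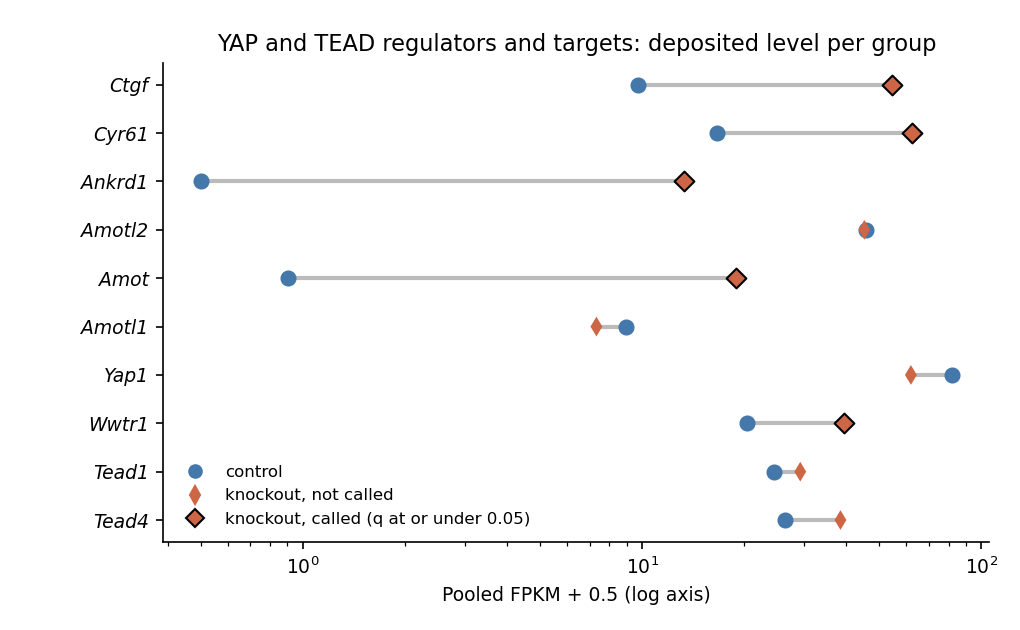
Deposited pooled FPKM + 0.5 (log axis) of the 10 genes, with circles for control and diamonds for knockout cells; outlined diamonds are called. Lines join the 2 values of a gene and are no error bars. Ankrd1 (listed at 0 and 12.8 FPKM) and Amot (0.402 and 18.3 FPKM) have the longest lines, and the Amotl2 symbols coincide near 45 FPKM.

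Among the angiomotins, Amot changed most. Amot (chromosome X, 145446425 to 145505144) was at 0.402 FPKM in the controls and 18.3 in the knockout (log2 ratio 4.39, q = 0.0012, the authors' deposited table). The 2 FPKM values differ 45.7-fold, a quotient with a control level near the bottom of the table, at percentile 2.06 of the tested genes. The ratio ranked 24th of 11362, and was 5.20 with a pseudocount of 0.1 and 3.79 with 1 FPKM. Amotl1 (chromosome 9, 14541966 to 14615006) stood at 8.46 and 6.83 FPKM and was not called (log2 ratio -0.29, q = 0.460, the authors' deposited table). FPKM is per transcript length, so levels can be set side by side: Amot made up 0.743% of the summed angiomotin FPKM in control and 26.3% in knockout cells, while Amotl2 went from 83.6% to 64.0% of sums of 54.0 and 69.8 FPKM. Amotl2 remained the highest of the 3, but its level was 112 times that of Amot in control cells and 2.43 times in knockout cells.

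Of the coactivators, Wwtr1 rose and Yap1 was not called. Wwtr1, which encodes TAZ (chromosome 3, 57455649 to 57575910), was at 19.9 FPKM in the controls and 38.8 in the knockout, a 1.95-fold difference (log2 ratio 0.94, q = 0.0022, the authors' deposited table). Yap1 (chromosome 9, 7931999 to 8004596) stood at 81.3 and 61.5 FPKM (log2 ratio -0.40, q = 0.219, the authors' deposited table). Together the pair summed to 101 FPKM in the controls and 100.2 in the knockout. Within that sum Wwtr1 took 19.7% in control and 38.7% in knockout cells. The level of Yap1 was 4.08 times that of Wwtr1 in control cells and 1.59 times in knockout cells, so Yap1 was the higher of the pair in both groups. The call of Wwtr1 was lost with a normal p computed for the authors' test statistic (q = 0.362), whereas Amot (q = 0.000135), Ctgf (q = 0.000462) and Cyr61 (q = 0.0103) stayed under 0.05, and Ankrd1 has no such statistic.

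The 2 TEAD factors among the 10 were not called. Tead4 (chromosome 6, 128224288 to 128300813), the TEAD gene needed to form trophectoderm, stood at 25.8 and 37.9 FPKM (log2 ratio 0.55, q = 0.122, the authors' deposited table). Tead1 (chromosome 7, 112679318 to 112906807), required in the mouse heart, stood at 23.9 and 28.7 FPKM (log2 ratio 0.26, q = 0.725, the authors' deposited table). Of their paralogues, Tead2 was by far the highest TEAD gene and fell from 235 to 130.2 FPKM (log2 ratio -0.85, q = 0.0030, the authors' deposited table). Tead3 stood at 3.24 and 2.36 FPKM and was not called (q = 0.659, the authors' deposited table). Tead2 made up 81.6% of the summed TEAD FPKM in control and 65.4% in knockout cells, Tead4 8.95% and 19.0%, and Tead1 8.29% and 14.4%. All 4 together summed to 288 FPKM in the controls and 199 in the knockout. Tead2 is 1 of 2 genes sharing a locus entry, and its 20 nearest tested neighbours had a median ratio of -0.43. Of the VGLL cofactors, which bind TEAD proteins in place of YAP, Vgll4 stood at 7.80 and 10.3 FPKM and was not called (q = 0.518, the authors' deposited table). Vgll1, Vgll2 and Vgll3 were at most 0.421 FPKM in either group and were not tested.

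**Figure D3:**
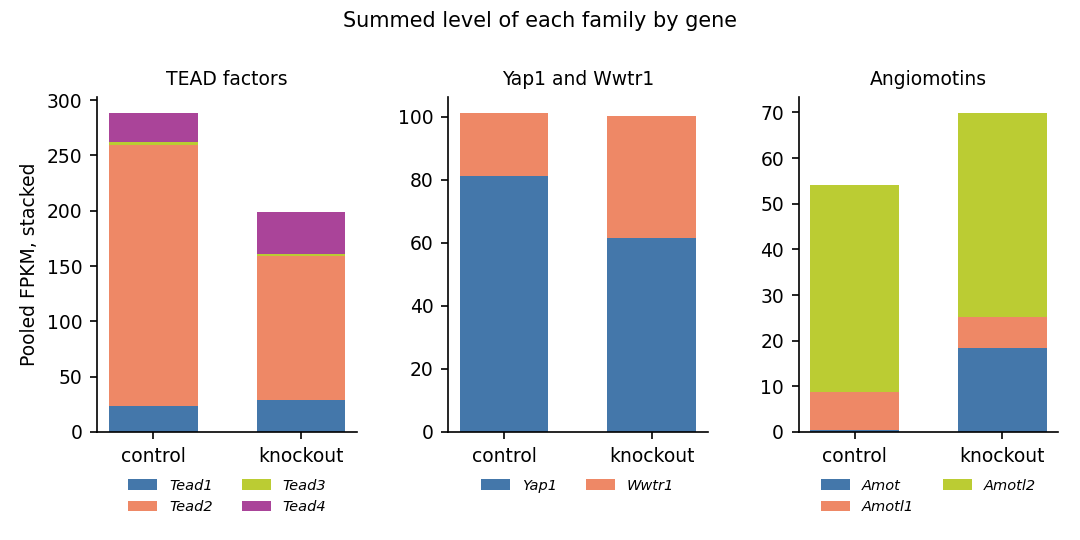
Stacked pooled FPKM of the TEAD genes, of Yap1 and Wwtr1, and of the angiomotin genes in control and knockout cells, 1 deposited value per gene and group and no error. The TEAD sum is 288 and 199 FPKM, the Yap1 and Wwtr1 sum 101 and 100.2 FPKM, and the angiomotin sum 54.0 and 69.8 FPKM; Wwtr1 and Amot take a larger share in knockout cells.

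Across the 10 genes the order of levels changed. In control cells Yap1 was highest, followed by Amotl2, Tead4, Tead1, Wwtr1, Cyr61, Ctgf, Amotl1, Amot and Ankrd1. In knockout cells Cyr61 was highest, followed by Yap1, Ctgf, Amotl2, Wwtr1, Tead4, Tead1, Amot, Ankrd1 and Amotl1. Cyr61 and Yap1 in knockout cells differed by less than 1 FPKM (61.8 and 61.5). With no spread per group, neighbours in either order cannot be told apart from equal levels.

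The median ratio of the 384 tested genes on chromosome 14 was 0.70, while those of the other autosomes ran from -0.10 to 0.11. None of the 10 genes lies there. On their own chromosomes the median ratio ran from -0.09 (chromosome 7, with Tead1) to 0.10 (chromosome 3, with Cyr61 and Wwtr1). Among the 10 tested genes on either side of Amot, 0 were called and the median ratio was -0.14, with a highest value of 1.74. The neighbours of Ankrd1 had a median of 0.25 and reached 1.10, those of Ctgf 0.25 and 1.69, and those of Cyr61 0.30 and 1.40. The ratios of Ctgf, Cyr61, Ankrd1 and Amot each lay above the highest of their 20 neighbours, while those of the other 6 genes, Wwtr1 with its ratio of 0.94 among them, lay within their neighbours' range. Each of the 10 genes has a locus entry of its own.

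**Figure D4:**
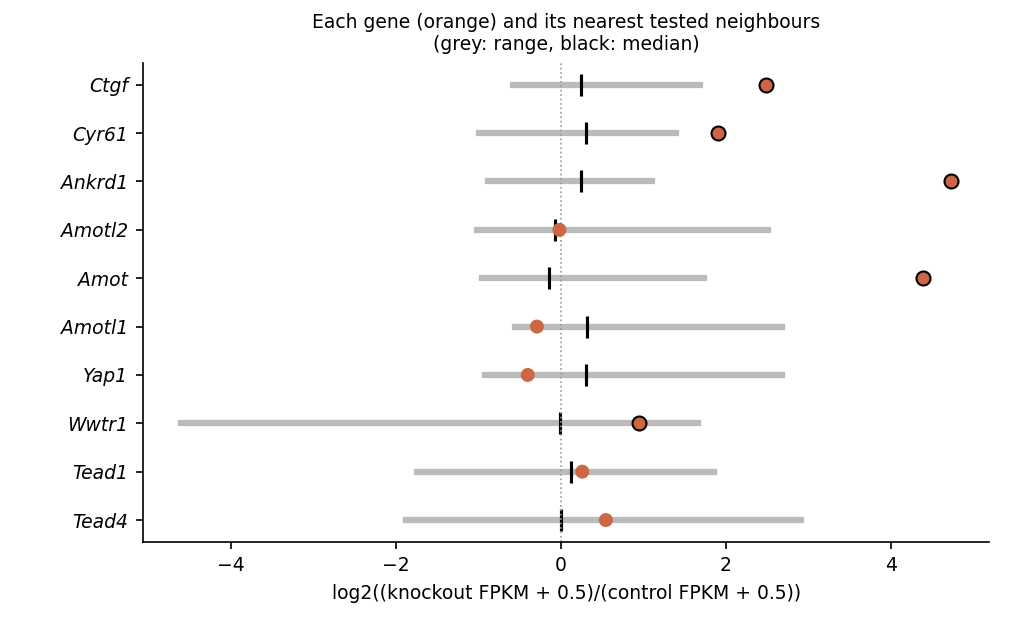
Log2 ratio (pseudocount 0.5 FPKM) of each of the 10 genes (orange, outlined where called) beside the range (grey) and median (black) of its nearest tested genes on the chromosome, 10 on either side (19 in all for Yap1). Ctgf (2.49), Cyr61 (1.91), Ankrd1 (4.73) and Amot (4.39) lie to the right of their grey bars.

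Other genes known as YAP and TEAD targets, mostly from human cells, moved upward where they were called. Of 36 listed targets, 24 were tested: 8 higher calls, 0 lower calls and 16 genes without a call, which is 33.3% higher beside 6.90% of all tested genes. Their median ratio was 0.66, and 0.45 over all 36. Of the 24 tested ratios, 18 were above 0 and 6 below, the lowest being -1.27 in a gene that was not called. F3, tissue factor, which starts blood clotting, rose from 2.88 to 44.4 FPKM, and Crim1, a membrane protein that binds BMPs, from 1.19 to 20.0 FPKM (q = 0.0012 for both, the authors' deposited table). The epithelial keratins Krt18 (9.55 to 117 FPKM) and Krt8 (6.11 to 52.9 FPKM) rose with a q of 0.0012 each in the authors' deposited table. Ajuba, a LIM protein that inhibits the LATS kinases, rose from 33.4 to 64.9 FPKM (q = 0.0012), and Dock5, a RAC activator, from 2.82 to 6.09 FPKM (q = 0.0022, both from the authors' deposited table). Anln, the cytokinesis scaffold anillin, rose from 25.3 to 40.0 FPKM (q = 0.0233), and Thbs1, thrombospondin, from 0.178 to 1.78 FPKM (q = 0.0402, both from the authors' deposited table). Krt8 and Krt18 adjoin each other and are among the trophectoderm markers above. The rise of the primitive endoderm markers given above came in the same comparison, and its part in these calls was not tested.

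Limits touch part of that count. Ajuba and Dock5 lie on chromosome 14, where neighbours rose too, with medians of 0.64 and 1.41; without chromosome 14, 6 of 21 were called higher. Genes under 1 FPKM in control cells were tested only where they were higher in the knockout, which holds for 5 of the 24 tested targets and 1 of the 8 calls (Thbs1), and the list was drawn up with several of these results known. Of the 28 windows found for 26 of these targets, 6 (21.4%) held GGAATG or its complement, beside 14.7% of all windows.

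Most tested kinases and upstream regulators of the pathway were not called, and the calls went in both directions. Of 62 listed genes, 61 were in the table and 55 were tested: 5 higher calls, 6 lower calls and 44 genes without a call, or 9.09% higher and 10.9% lower beside 6.90% and 6.03% of all tested genes. The median ratio was -0.02. With normal p-values for the authors' test statistic, 0 higher and 0 lower calls were left. By that rule only 0.845% of the 11236 genes with a statistic were called higher and 0.258% lower. None of the core kinase genes was called: Stk3 (7.78 and 8.69 FPKM), Stk4 (32.5 and 25.0 FPKM), Lats1 (3.19 and 3.25 FPKM) and Lats2 (0.463 and 4.75 FPKM, q = 0.254, the authors' deposited table). The scaffold gene Sav1 (9.29 and 7.07 FPKM) and Nf2 (108 and 146 FPKM), the gene of the membrane-linked activator merlin, were not called either. Lats2, itself a YAP target, lies on chromosome 14, and its 20 nearest neighbours had a median ratio of 0.88.

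Among the called regulators, Taok3, of a kinase family that activates the MST kinases, rose from 8.80 to 22.6 FPKM (q = 0.0022, the authors' deposited table). Ctnna1, the junction protein alpha-catenin, rose from 81.2 to 166 FPKM (q = 0.0012), and Map4k3, of a kinase family that can phosphorylate LATS, from 10.1 to 18.9 FPKM (q = 0.0078, both from the authors' deposited table). Ajuba is in this list too, and the fifth higher call was Rassf1. Nphs1, the kidney slit protein nephrin, fell from 19.0 to 8.36 FPKM (q = 0.0022), and the giant cadherin gene Fat1 from 37.1 to 18.3 FPKM (q = 0.0012, both from the authors' deposited table). Wtip, a LIM protein related to Ajuba, fell from 32.8 to 17.2 FPKM (q = 0.0140), and the junction scaffold Magi1 from 9.09 to 4.93 FPKM (q = 0.0428, both from the authors' deposited table). Taok2 and Mink1 were the other lower calls. The related LIM genes Ajuba and Wtip, and the TAO kinase genes Taok3 and Taok2, were thus called in opposite directions. Ctnna1 is 1 of 2 genes sharing a locus entry. The 20 nearest tested neighbours of Fat1 had a median ratio of -0.38, with 4 called lower and 0 higher.

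Ctgf, Cyr61 and Ankrd1 also respond to SRF with its MRTF cofactors and to TGF-beta, and genes of those programmes were counted in the same way. Of 31 SRF and MRTF target and actin genes, 25 were tested, with 5 higher calls, 0 lower calls and a median ratio of 0.40, beside 6.90% higher and 6.03% lower calls among all tested genes. These were the myosin heavy chain gene Myh9 (111 to 235 FPKM), Tpm4 (20.5 to 54.5 FPKM), the focal adhesion gene Zyx (6.51 to 18.6 FPKM), Egr1 (20.9 to 45.4 FPKM) and Csrp1 (49.3 to 81.5 FPKM). Srf itself stood at 28.5 and 27.8 FPKM and was not called. Of 19 TGF-beta targets, 15 were tested, with 2 higher calls, Lefty2 (3.53 to 12.8 FPKM) and Thbs1, 0 lower calls and a median ratio of 0.59. The share of higher calls in the TGF-beta list was 13.3%, beside the same 6.90%. Of the 15 tested, 2 were under 1 FPKM in control cells, 1 of the calls (Thbs1) among them. Such genes were tested only where they were higher in the knockout. Thbs1 is also counted among the other YAP and TEAD targets above. Zyx is 1 of 2 genes sharing a locus entry. The part of either programme in the values of Ctgf, Cyr61 and Ankrd1 was not tested.

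**Figure D5:**
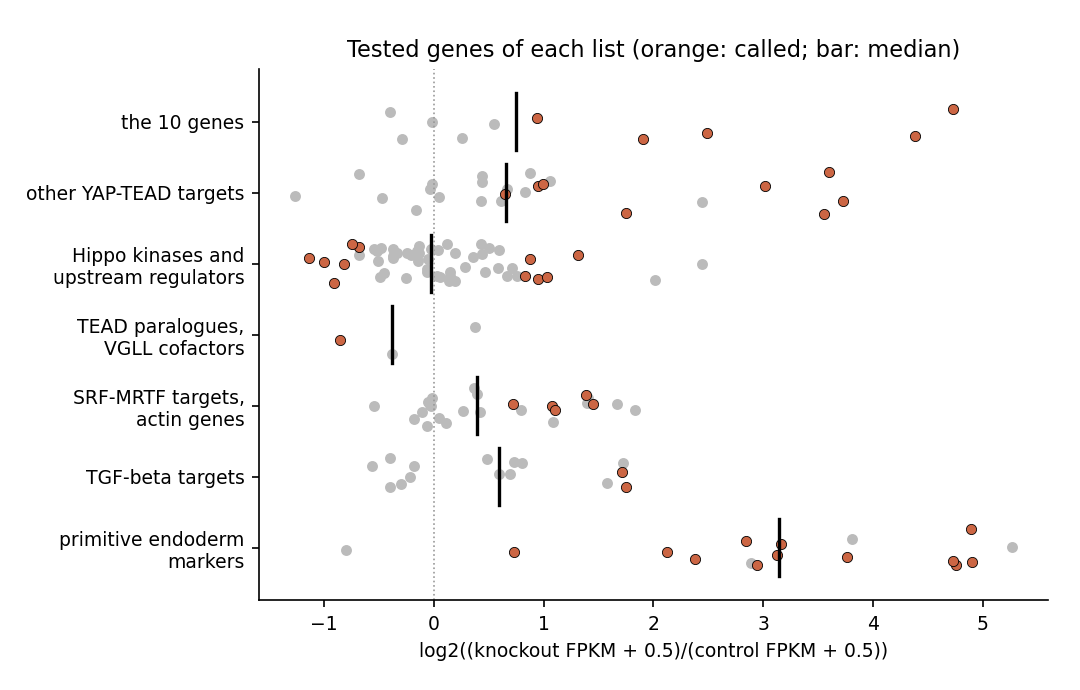
Log2 ratio (pseudocount 0.5 FPKM) of each tested gene in 7 lists, jittered vertically within a list; orange points are called and the bar is the list's median. Medians are 0.75 for the 10 genes, 0.66 for other YAP and TEAD targets, -0.02 for Hippo kinases and upstream regulators and 3.14 for primitive endoderm markers. Untested genes are not drawn.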

How the data were processed

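The 43 samples comprised 36 ChIP-seq samples and 1 input, not analysed here, and 6 RNA-seq libraries, 3 per group. Per the submitters' processing notes, TopHat2 2.1.0 and Cuffdiff 2.2.1.3 were among the tools; mm9 and mm10 are both listed as builds. Each gene's FPKM was computed by the authors once for each group, pooling its libraries (per the file headers). The log2 fold change, the p-value and q-value and the test statistic, a score, were also deposited by the authors. The sources used here state neither the scaling of libraries nor whether counting used strand.

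Coordinates come from the table, with starts moved to 1-based. They are given as mm10: of 21090 symbols shared with RefSeq for GRCm38.p6 (mm10), 99.99% lay on the same chromosome and 70.1% had both ends within 2 kb. Depth is unknown, since the table gives no counts. Of 22462 genes, 11098 had status NOTEST and 2 FAIL, and 0 tested genes were under 1 FPKM in both groups. A call needs status OK and a deposited q of 0.05 or less, and the 472 smallest p share the q of 0.0012. No test across libraries was possible. Python 3.11.15 and pandas 2.3.3 were used, and the adjustment was tested on simulated data. The 10 genes and the lists were chosen with earlier results of these data known. Named genes are the 10, every called gene of a list (where over 8 are called, the 4 with the largest ratios in each direction), all genes of lists of 6 or fewer, 6 core Hippo genes and up to 3 markers per list; Srf, Rassf1, Taok2, Mink1, Wisp genes and markers beyond 3 per list were named to account for counts after their values were seen. Alternatives were a stricter q (0.01), at least a 2-fold change, a minimum FPKM of 1, the adjustment recomputed, normal p-values for the test statistic, no genes listed at 0, pseudocounts of 0.1 and 1, and median centring.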

Additional observations from a re-analysis of the deposited data

How the results depend on the processing

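At a q of 0.01, lower calls among Hippo kinases and upstream regulators went from 6 to 2. Over all tested genes the lower share went from 6.03% to 2.96%. With a 2-fold minimum, higher calls went from 8 to 5 among other YAP and TEAD targets and from 5 to 2 among the Hippo genes. Lower calls of the Hippo genes went from 6 to 2. Over all tested genes that setting called 4.67% higher and 2.80% lower, so the whole table lost calls too. With normal p-values for the deposited test statistic, by which 0.845% of the 11236 genes with a statistic were called higher and 0.258% lower, higher calls were 3 of the 10 genes (Amot, Ctgf and Cyr61), 4 other targets (Crim1, F3, Krt8 and Krt18) and 0 Hippo genes, and lower Hippo calls were 0; why these p-values differ from the deposited ones was not tested. Of the ratios, those of Ankrd1 (7.01 with a pseudocount of 0.1, 3.78 with 1) and Amot (5.20 and 3.79) moved by more than 0.1. The other 54 of 66 values kept within 1.5 times of the main count, or within 0.1 of the main ratio. Without genes listed at 0, Ankrd1 dropped out and 4 of the 10 genes were called higher, beside 6.67% of all genes so kept. No ratio changed sign, but a change of pseudocount cannot turn a sign. Pseudocounts up to 1 FPKM also weigh little on genes at levels well above that. A count of 0 calls could not rise under a stricter q, a 2-fold minimum or without genes listed at 0. The FPKM filter could remove no call, since 0 tested genes were under 1 FPKM in both groups. The recomputed adjustment could remove none either, since it gave back the deposited q. Centring on a median of -0.0035 could not move a ratio by more than 0.1, or turn the sign of any of the 10. Outcomes fixed in these ways are counted in the 66 but say nothing about stability. No paired analysis was possible because the table pools the libraries of a group, and for the same reason no replicate could be left out. Precision is limited by the unknown depth and the missing values per library.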
